A study of Mus musculus with 30 samples.

Results

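The effect of losing Arid1a on gene expression was measured in mouse thyroids that carry Braf V600E and received vehicle, by comparing Braf(V600E) + Arid1a KO libraries 1, 2 and 3 with Braf(V600E) libraries 2, 4 and 5. Both groups carried the Braf mutation and differed in the Arid1a knockout. Both received vehicle for 8 days and were killed about 2 h after the last dose. These 6 RNA-seq libraries are part of 28 in the series, and 19016 of the 33924 genes in the count table had enough counts to be tested. Comparisons without shared libraries came from 2 further pairs of groups, with 3 libraries each. One pair was the same genotypes given CKI, the labels' name for the drug CH5126766, an inhibitor of RAF and MEK kinases, on the same schedule. The other pair was Arid1a KO and Wildtype thyroids with no treatment and no mutant Braf. The allele that deletes Arid1a, the Cre driver, the age and any pooling of animals are not given in the sources used here. The labels do not say that libraries are separate animals, and what the p-values weigh is the variation among libraries, which may be technical.

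The V600E change in Braf, common in papillary thyroid cancer, keeps this kinase switched on and with it the MEK and ERK kinases. Sustained ERK signalling lowers the genes by which thyroid follicular cells take up iodide and make thyroid hormone. Arid1a is the DNA-binding subunit of the BAF form of SWI/SNF, a complex that moves nucleosomes and so opens or closes enhancers and promoters, and its gene is recurrently mutated in human cancers, including advanced thyroid cancers.

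Arid1a itself did not pass the test. It was at 11.6, 30.9 and 22.9 CPM in the Braf libraries and at 15.9, 15.2 and 11.98 CPM in the knockout libraries (log2FC -0.60, SE 0.42, adjusted p = 0.404 by edgeR's quasi-likelihood test). The groups overlapped. CPM are counts scaled to library size by TMM, and log2FC is the log2 fold change, knockout minus Braf, with its standard error (SE). A count over the whole gene includes reads outside a deleted part, so this value does not check the label. Depth was 24732943 to 32510940 counts per library. The 3 Braf libraries lay farther apart than the 3 knockout libraries (chi-square per degree of freedom 165.1 to 359.4 against 106.6 to 112.5 for pairs within a group), all far beyond sampling noise. The first principal component, 51.9% of the variance, put the Braf libraries at -20.3, -81.9 and -51.1 and the knockout libraries at 63.2, 42.4 and 47.7. The second, 25.4%, set Braf library 2 apart at 81.9. Braf library 2 had Y-linked counts (386.1 CPM) and almost no Xist (0.102 CPM), Braf library 4 the reverse (0.109 and 315.5 CPM) and Braf library 5 had both (70.2 and 116.1 CPM). The knockout libraries had 0.0634, 12.5 and 0.0303 CPM of Y-linked genes and 122.1 to 225.4 CPM of Xist. With the Y-linked level as a covariate, an alternative added after seeing the data, 1628 genes passed.

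In all 1818 of 19016 genes passed an adjusted p of 0.05 (9.56%), 808 higher (4.25%) and 1010 lower (5.31%) with Arid1a loss. The median log2 fold change was 1.86 among the rises and -2.60 among the falls. Changes over 4-fold were found for 362 rises and 648 falls. The libraries of the 2 groups did not overlap for 783 of the 808 rises and 780 of the 1010 falls, where 27.3% of all genes tested did not overlap. Leaving out 1 library moved the count to between 737 (without knockout library 1) and 1637 (without Braf library 2). It was 948 without Braf library 4, 1078 without knockout library 2 and 1012 without knockout library 3. The split between rises and falls also moved. It was 592 higher and 503 lower with the replicate number as a block, 501 and 435 with the stromal level described further on as a covariate, and 507 and 505 without knockout library 3. Calls that held in each of the 6 fits that left out 1 library numbered 223 rises and 303 falls.

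**Figure D1:**
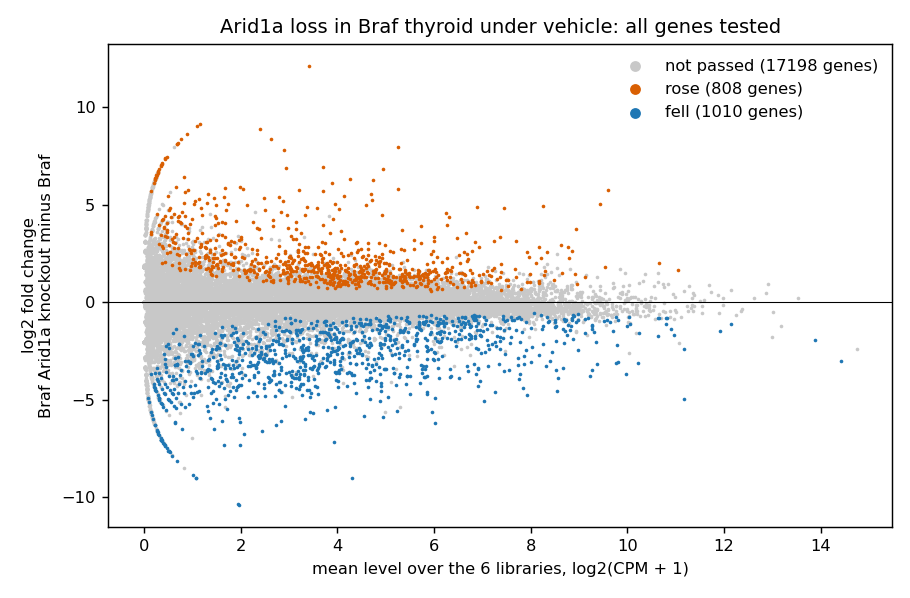
Each point is 1 of the 19016 genes tested, with its mean level over the 6 libraries in log2(CPM + 1) on the x axis and the log2 fold change, Braf Arid1a knockout minus Braf, on the y axis. The 808 rises (orange) and 1010 falls (blue) passed an adjusted p of 0.05, and falls reach further from 0 than rises over much of the range of levels.

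Thyroid genes were read first. Tshr, the receptor for thyrotropin, was at 14.5, 17.4 and 15.9 CPM in the Braf libraries and at 147.6, 263.7 and 144.6 CPM in the knockout libraries (log2FC 3.54, SE 0.45, adjusted p = 6.91e-05). Every knockout library stood far above every Braf library. Of 16 thyroid differentiation genes 2 rose, Tshr among them, with no fall and a list median of 0.22, against a median of 0.00 and 4.25% rises over all genes. The Tshr call held without each library in turn. In those fits 2 genes of the list rose, 0 to 2 fell and the list median ran from -0.08 to 0.43. Of the 14 genes that did not pass, 8 had positive and 6 negative fold changes. They include Tg, the hormone's precursor protein, at 0.48, the iodide symporter Slc5a5 at 0.32, the transcription factors Pax8 at -0.30, Nkx2-1 at 0.68 and Foxe1 at 1.26, and the oxidases Duox1 and Duox2 at -2.24 and -1.57. The mean log2(CPM + 1) of the 16 genes was 2.80 ± 0.51 in Braf and 3.26 ± 0.20 in knockout libraries.

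Among 9 accessory genes of hormone production none rose and 2 fell (median -0.02). Kcnq1, a potassium channel subunit of the follicular cell, went from 3.72, 18.0 and 13.2 to 2.03, 1.34 and 1.73 CPM (log2FC -2.77, adjusted p = 0.012). The adjusted p was 0.0557 without Braf library 4 and 0.0538 without knockout library 2. Duoxa1, which helps mature the oxidase Duox1, went from 4.96 ± 3.003 to 0.873 ± 0.735 CPM (mean ± SD, n = 3; log2FC -2.52, adjusted p = 0.0247). Its adjusted p was 0.12, 0.109 and 0.0873 without Braf library 4, knockout library 1 and knockout library 3.

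Genes that report MAPK activity were described next, since both groups carry the mutation that drives this pathway. Of 20 such genes 2 rose and none fell (median 0.48, with 14 of 20 positive). Spry1, a feedback inhibitor of receptor tyrosine kinase signalling, was at 8.51, 19.2 and 18.2 CPM in Braf and at 67.9, 90.4 and 49.7 CPM in knockout libraries (log2FC 2.18, SE 0.46, adjusted p = 0.00476). Myc, a growth-promoting transcription factor, went from 134.4 ± 31.5 to 368.1 ± 49.1 CPM (log2FC 1.45, adjusted p = 0.0441), without overlap of the groups. That call was lost without any 1 of the 6 libraries (adjusted p 0.0691 without Braf library 5 to 0.155 without Braf library 4). The ERK phosphatase Dusp6 (1.30), Spry4 (1.28) and the ETS factors Etv5 (1.34) and Etv4 (-0.06) did not pass. No member of a list of 10 AP-1 subunits passed (median 0.54), though 9 had positive values, with the AP-1 subunit Jun at 1.80 and Fos at 0.94. The dissociation stress list, which shares Fos, Fosb, Jun, Junb, Egr1 and others with these lists, had a mean log2(CPM + 1) of 8.69 ± 0.63 in Braf and 9.64 ± 0.33 in knockout libraries. None of its 14 members passed, 13 were positive, and its part in the MAPK and AP-1 values was not tested beyond a fit with that level as a covariate, where 1 MAPK gene rose and 1 fell (median 0.09).

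Ligands and receptors act upstream of these kinases. Btc, an EGF receptor ligand, rose from 68.7 ± 27.2 to 151.4 ± 44.2 CPM (log2FC 1.14, adjusted p = 0.0176), and Igf2 was the 1 fall among 15 ligands. The Btc call was lost without Braf library 4, Braf library 5 or knockout library 3 (adjusted p = 0.109, 0.0855 and 0.0983). Of 15 growth factor receptors 3 fell (median -0.67). Met, the receptor for hepatocyte growth factor, went from 35.4, 25.9 and 35.6 to 11.6, 4.72 and 8.61 CPM (log2FC -1.96, adjusted p = 0.0117, and 0.061 without knockout library 2). The others were Egfr and Pdgfrb, whose groups overlapped. Egfr had an adjusted p of 0.233 without Braf library 4 and 0.0747 to 0.0879 without any 1 knockout library, and Pdgfrb of 0.361, 0.168 and 0.154 without Braf library 4, knockout library 1 and knockout library 3. Ctgf, a matricellular protein and YAP target, was the 1 gene of 9 YAP/TEAD targets that passed, at 71.7 ± 47.4 and 505.7 ± 180.5 CPM (log2FC 2.82, adjusted p = 0.0217). Its adjusted p was 0.0731, 0.0794, 0.0602 and 0.0599 without Braf libraries 2 and 4 and knockout libraries 1 and 2. In the Notch list of 12, the receptors Notch1 and Notch3 and the Notch target Heyl fell. Heyl went from 4.33, 42.7 and 13.9 to 0.73, 1.67 and 0.697 CPM (log2FC -4.31, adjusted p = 0.000541) and held without each library, while Notch1 and Notch3 did not hold without 4 and 5 of the 6 libraries in turn (adjusted p up to 0.131 and 0.24). Lef1, a transcription factor of Wnt signalling, was the 1 of 10 Wnt targets that passed, and fell from 5.47 ± 4.07 to 0.281 ± 0.225 CPM (log2FC -4.31, adjusted p = 0.000852).

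Mesenchymal transition is the loss of epithelial character by tumour cells. Of 14 of its genes tested 9 fell and none rose (median -2.34, 13 of 14 negative), where 5.31% of all genes fell. Zeb1, a transcription factor that represses epithelial genes, was at 17.0, 83.9 and 53.4 CPM in Braf and at 4.35, 5.54 and 5.55 CPM in knockout libraries (log2FC -3.32, SE 0.50, adjusted p = 0.000371). Sparc, a collagen-binding matrix protein, went from 1887, 5710 and 3966 to 711.1, 744.4 and 734.1 CPM (log2FC -2.40, SE 0.36, adjusted p = 0.000332). The knockout libraries lay close together and below all Braf libraries for both genes. Tnc, the matrix protein tenascin C, fell from 227 ± 189.1 to 11.5 ± 7.14 CPM (log2FC -4.31, adjusted p = 0.00381). The other falls were Vim, Snai1, Twist1, Itga5, Cd44 and Cdh2, the last with 2 counts in the knockout group, a 38.4-fold difference with a 95% counting interval of 10.6 to 316.8. The groups overlapped for Cdh2, with Braf library 2 at 0.0509 CPM and knockout library 1 at 0.0634 CPM. Without 1 library in turn 4 to 10 members fell, 4 with the replicate block, and 3 of the 13 tested when only the 6 vehicle libraries were fitted. Of 15 epithelial genes, whose list median was 0.00, Krt19 alone passed. This keratin fell from 1588 ± 667.4 to 191.8 ± 29.4 CPM (log2FC -3.05, adjusted p = 0.00961, and 0.0527 without knockout library 1). Among keratinization genes Krt17 and Krt16 fell of 10 tested (median -0.74), with Krt17 at 62.5 ± 34.2 and 2.16 ± 1.75 CPM (log2FC -4.84, adjusted p = 0.00961, and 0.0527 without knockout library 1). Krt16 was at 2.89 ± 2.75 and 0.134 ± 0.123 CPM, with an adjusted p of 0.0335 that rose to between 0.0693 and 0.124 without Braf library 2 or any 1 knockout library. Keratin genes are a family of close copies and may share reads.

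TGF-beta genes encode a family of cytokines that promote matrix production and the proteins that answer to them. Of 14, Tgfb2, Tgfb3, Skil and Inhba fell, Tgfbi rose and 9 did not pass (median -1.10, 13 of 14 negative). The ligand gene Tgfb3 went from 68.0, 408.5 and 174.6 to 15.99, 21.4 and 25.9 CPM (log2FC -3.36, SE 0.54, adjusted p = 0.000584). Tgfb2 fell from 9.296 ± 4.27 to 1.22 ± 0.311 CPM and Inhba, a subunit of activin, from 117.5 ± 68.7 to 15.6 ± 7.64 CPM (log2FCs -2.93 and -2.92). Tgfbi, a secreted matrix protein induced by TGF-beta, rose from 536.9, 518.3 and 856.6 to 1866, 3094 and 2802 CPM (log2FC 2.02, SE 0.43, adjusted p = 0.00517). The 3 ligand falls and the rise of Tgfbi held without each library in turn. Of 11 metalloproteinases and inhibitors Mmp10, Timp1 and Timp3 fell (median -1.28), Timp3 with an adjusted p of 0.0699 to 0.171 without any 1 library but Braf library 2. Timp1, an inhibitor of metalloproteinases, went from 490.6, 501.0 and 746.0 to 54.6, 57.3 and 66.03 CPM (log2FC -3.29, SE 0.61, adjusted p = 0.00178). Plat, tissue plasminogen activator, went from 404.6 ± 56.9 to 59.6 ± 16.6 CPM (log2FC -2.76, SE 0.37, adjusted p = 0.00012).

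Markers of stromal cells were read beside these genes. Fibroblast markers fell for 9 of 10 (median -3.87), collagen chains for 8 of 13 (-2.72), smooth muscle and pericyte markers for 6 of 8 (-3.38), endothelial markers for 6 of 10 (-3.27) and Schwann cell markers for 4 of 5 (-3.76), and none rose. The fibroblast and collagen lists share 3 genes, Col1a1, Col1a2 and Col3a1. Lum, a collagen-binding proteoglycan of fibroblasts, was at 107.3, 1485 and 550.3 CPM in Braf and at 23.5, 40.1 and 26.4 CPM in knockout libraries (log2FC -4.57, SE 0.89, adjusted p = 0.00274). Acta2, smooth muscle actin, went from 74.7, 376.1 and 244.9 to 9.26, 25.1 and 7.22 CPM (log2FC -4.07, adjusted p = 0.00122). Braf library 4 was the highest and Braf library 2 the lowest of the Braf libraries for both, and neither overlapped the knockout libraries. Flt1, a VEGF receptor of endothelium, went from 20.3 ± 11.4 to 1.94 ± 0.270 CPM (log2FC -3.39, adjusted p = 0.000126), but for Pecam1 and Emcn, 2 other endothelial genes, Braf library 2 lay among the knockout libraries and the adjusted p was 0.063 and 0.0599 without Braf library 4. The Schwann cell gene S100b fell from 15.8 ± 4.32 to 0.705 ± 0.109 CPM (log2FC -4.48, adjusted p = 0.00146), and Sox10, with 0 counts in the knockout group, was at least 17-fold lower with the floor set at 3 counts for the group as a whole (adjusted p = 0.0389, and 0.0624 to 0.118 without any 1 library but Braf library 2). Sox10 was also at 0 CPM in Braf library 2, so the groups overlapped and the bound comes from Braf libraries 4 and 5. Counting intervals and floors cover counting error only.

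For the fibroblast, endothelial, smooth muscle and Schwann cell lists the Braf libraries differed among themselves by more than the group means did. The mean log2(CPM + 1) of the 10 fibroblast markers was 5.33, 9.17 and 7.56 in Braf libraries 2, 4 and 5 and 3.90, 5.07 and 4.48 in the knockout libraries. Summed over the list it was 1130, 24130 and 5897 CPM against 369.9, 910.3 and 574.8 CPM. For endothelial markers the mean was below that of every knockout library in Braf library 2. Without Braf library 4 the falls were 4 of 10 fibroblast markers (median -2.66), 1 of 13 collagens (-1.73), 3 of 8 smooth muscle markers (-2.58), 2 of 10 endothelial markers (-2.34), 2 of 5 Schwann cell markers (-2.85) and 5 of 14 mesenchymal genes (-1.92). Knockout library 1 had a like effect on collagens, with 1 fall without it. When only the 6 vehicle libraries were fitted 4 fibroblast, 2 collagen, 4 smooth muscle, 3 endothelial and 1 Schwann cell marker fell, and with the replicate block 8, 2, 3, 4 and 2. With the mean level of the fibroblast, endothelial and smooth muscle lists as a covariate, chosen after these levels were seen, the calls numbered 936. In that fit no fibroblast, collagen or smooth muscle marker passed, the covariate being made of most of these genes, 1 endothelial and 1 Schwann cell marker fell, and the median over all genes moved to 0.22. Zeb1 (-1.41, adjusted p = 0.0277) and Sparc (-1.27, adjusted p = 0.0294) were the 2 mesenchymal genes that fell in it, and Timp1 was at -2.91 (adjusted p = 0.0229) and Tshr at 3.97 (adjusted p = 0.00109). Tnc, Tgfb2, Inhba, Lum, Acta2, Oasl2 and Idi1, which held without each library in turn, lost the call in it. The part of stromal content in the mesenchymal and TGF-beta falls was not tested beyond this fit. In bulk libraries fewer cells of a type and less RNA per cell cannot be told apart. The labels describe sorting of YFP-positive cells from dissociated glands in one text and freezing of Wildtype, Arid2 and Smarcb1 thyroids in another, and both stand on every sample.

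**Figure D2:**
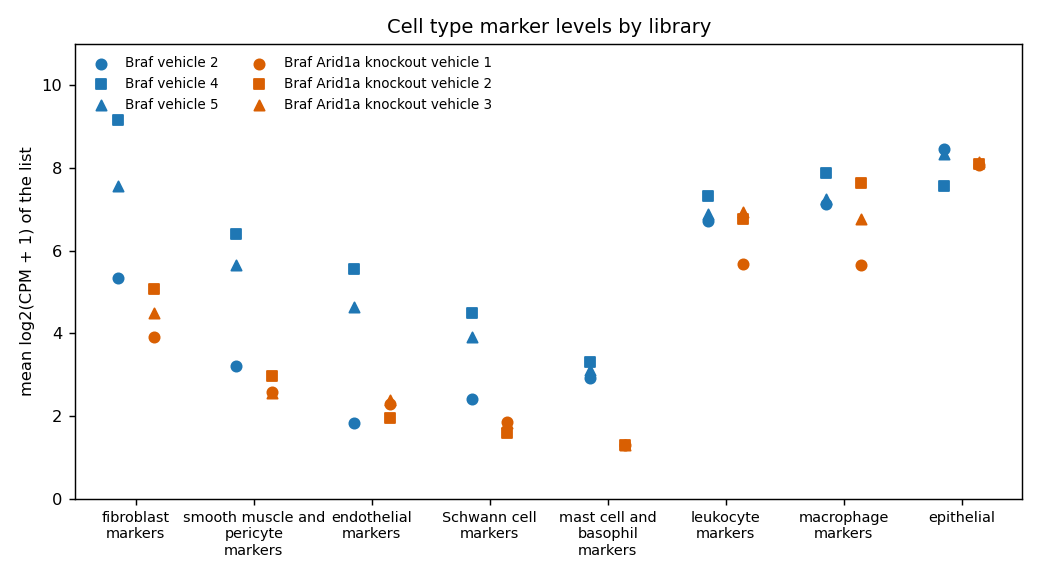
Each point is 1 library, with the mean log2(CPM + 1) of a cell type's marker genes on the y axis, for 8 marker lists on the x axis (Braf in blue, Braf Arid1a knockout in orange, shapes for replicate numbers). Fibroblast levels run from 5.33 to 9.17 in Braf and from 3.90 to 5.07 in knockout libraries, while epithelial levels overlap between the groups.

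Immune genes did not move as one group by the calls, though several lists leaned to lower values. None of 7 leukocyte markers (median -0.50) or 9 macrophage markers (-0.51) passed, but all of them had negative fold changes. None of 6 neutrophil markers (-0.16, 3 negative) or 5 B cell markers (-0.13, 3 negative) passed. Lyz2, a lysozyme of macrophages, was at 2586 ± 345.9 CPM in Braf and 1428 ± 444.3 CPM in knockout libraries (adjusted p = 0.472). None of 10 T and NK cell markers passed either, although 6 had an unadjusted p under 0.05. Of these 10 markers 9 were negative and the median was -2.31. All 10 mast cell and basophil markers were negative and 5 fell, namely Mcpt1, Mcpt8, Cpa3, Tpsb2 and Kit. The list median was -4.52, or -3.69 with 2 genes that had 0 counts in the knockout group at their bound. Tpsb2 and Cpa3 overlapped between the groups, and Kit and Tpsb2 lost the call without Braf library 4 (adjusted p = 0.0868 and 0.107) or knockout library 1 (0.0527 and 0.071). Tpsb2 lost it also without knockout library 2 or 3 (adjusted p = 0.0918 and 0.0982). Mcpt1, a mast cell protease, went from 271.8, 23.3 and 83.2 to 1.68, 2.12 and 1.40 CPM (log2FC -6.19, SE 1.38, adjusted p = 0.00802). Mcpt8, a basophil protease, went from 4299, 341.1 and 1816 to 331.1, 162.0 and 251.8 CPM (log2FC -3.12, adjusted p = 0.0281). Both were highest in Braf library 2, and Mcpt8 lost the call without it (-2.06, adjusted p = 0.146) or without any 1 knockout library (0.0724 to 0.101). Without knockout library 1 only 1 of the 10 fell, and with the replicate block 2 did. The proteases are close copies of each other, so their reads may be shared.

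Of 19 interferon-stimulated genes Oasl2, Rsad2 and Bst2 fell and none rose (median -0.66, 15 of 19 negative). Oasl2, an antiviral protein, went from 25.3, 35.4 and 26.4 to 6.79, 10.4 and 12.4 CPM (log2FC -1.56, SE 0.31, adjusted p = 0.00362) and held without each library. Bst2, which tethers virus particles, went from 41.5 ± 2.63 to 15.5 ± 4.69 CPM (log2FC -1.43, adjusted p = 0.0185, and 0.0879 without knockout library 2). Rsad2 lost the call without Braf library 4, knockout library 1 or knockout library 2 (adjusted p = 0.085, 0.0668 and 0.0592). In class I antigen presentation B2m, the light chain of class I molecules, fell from 1926, 1880 and 1639 to 538.5, 540.1 and 740.8 CPM (log2FC -1.58, SE 0.27, adjusted p = 0.00118), and H2-D1, a heavy chain, rose from 1035 ± 369.9 to 3204 ± 997.8 CPM (log2FC 1.63, adjusted p = 0.0287). The H2-D1 call was lost without Braf library 2 or 4 or knockout library 1 or 2 (adjusted p = 0.0634, 0.128, 0.103 and 0.0817), and H2 genes share reads with close relatives. None of 7 class II genes passed (median 0.58, 6 of 7 positive). H2-Ab1 was at 331.4, 380.4 and 587.2 CPM in Braf and 604.2, 1600 and 2029 CPM in knockout libraries (adjusted p = 0.0777), and Cd74, the invariant chain, at 1848 ± 785.9 and 2768 ± 1590 CPM (adjusted p = 0.446).

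Cell cycle genes showed few calls. None of 18 replication genes passed (median 0.22) and 1 of 20 mitosis genes did (median 0.37), Cdc20, an activator of the anaphase-promoting complex, at 5.12 ± 2.82 and 19.4 ± 5.61 CPM (log2FC 1.92, adjusted p = 0.0267). That call was lost without Braf library 2 or 4 or knockout library 1 or 3 (adjusted p 0.0568 to 0.104). Of 12 p53 targets Sesn1, Sesn2 and Trp53inp1 rose and Eda2r, a receptor of the TNF family, fell (median -0.45). Sesn2, a stress-induced inhibitor of mTORC1, went from 42.0, 21.2 and 53.1 to 101.3, 133.4 and 108.2 CPM (log2FC 1.56, adjusted p = 0.0121, and 0.0747 without Braf library 4). Eda2r went from 111.3, 35.6 and 50.3 to 15.1, 11.9 and 13.3 CPM (log2FC -2.29, adjusted p = 0.00437). Sesn1 and Trp53inp1 lost the call without 4 of the 6 libraries in turn (adjusted p up to 0.102 and 0.25).

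In metabolism, 4 of 14 glycolysis and hypoxia genes fell and Pdk1 rose (median -0.41). The glycolytic enzyme Pgk1 went from 134.2, 92.0 and 116.9 to 49.1, 47.4 and 58.5 CPM (log2FC -1.15, SE 0.25, adjusted p = 0.00711), and the glucose transporter Slc2a1 from 617.3 ± 80.6 to 224.5 ± 26.7 CPM (log2FC -1.46, adjusted p = 0.0117, and 0.0525 without knockout library 3). The other falls were Eno1 and P4ha1, the latter with an adjusted p of 0.0594 without knockout library 1. Pdk1, a kinase that inhibits pyruvate dehydrogenase, rose from 4.701 ± 1.86 to 16.3 ± 2.16 CPM but had an adjusted p of 0.0558 to 0.112 without any 1 library but Braf library 5. Of 12 sterol and fatty acid synthesis genes Idi1, Scd1 and Srebf1 rose and none fell (median 0.68). Idi1, an isomerase of the sterol pathway, went from 8.25, 7.96 and 4.99 to 17.2, 17.8 and 23.4 CPM (log2FC 1.46, SE 0.30, adjusted p = 0.00416) and held without each library, whereas Scd1 and Srebf1 lost the call without 5 of them in turn (adjusted p up to 0.183 and 0.149). None of 17 respiratory chain genes passed (median -0.05). Of the 29 SWI/SNF subunit genes tested none passed (median 0.10), with the paralogue Arid1b at 0.06, the ATPase Smarca4 at 0.14 and its paralogue Smarca2 at 0.10. In the Polycomb list 1 of 14 passed, Cbx7, a subunit that binds methylated histone H3, at 4.299 ± 1.82 and 18.0 ± 10.7 CPM (log2FC 2.06, adjusted p = 0.00765, and 0.0751 without knockout library 1).

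**Figure D3:**
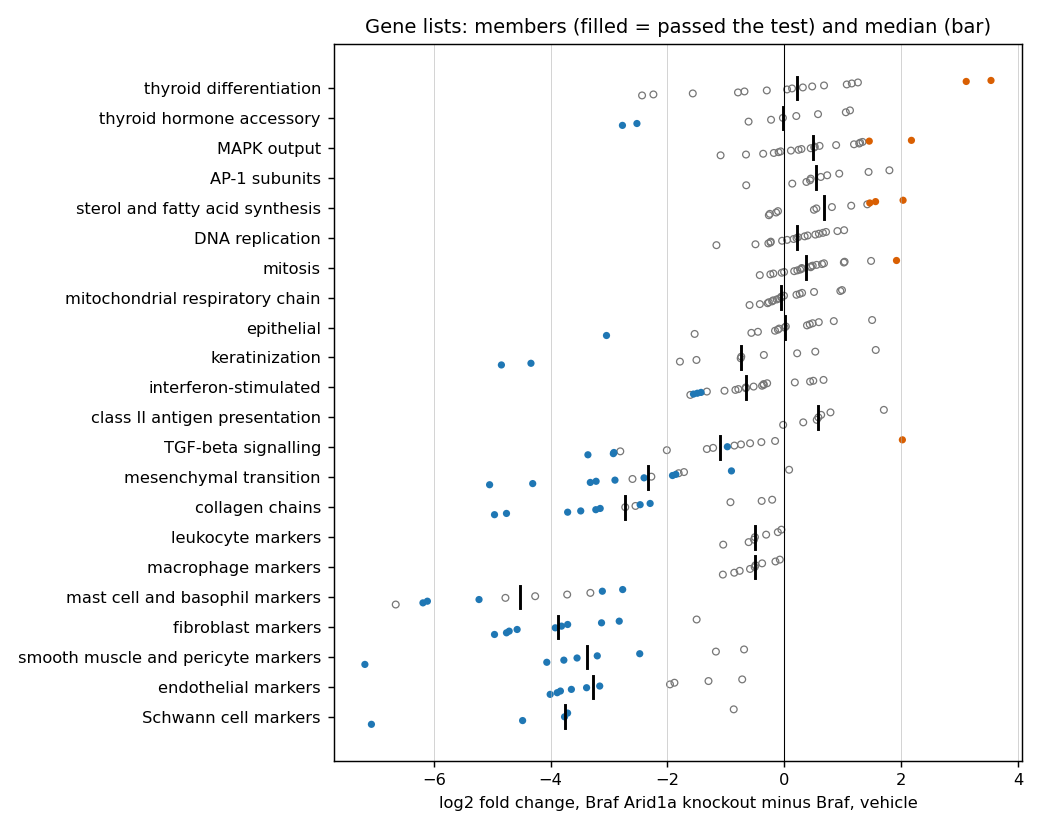
Each row is a gene list and each point 1 of its genes, placed by the log2 fold change, Braf Arid1a knockout minus Braf under vehicle. Filled points passed an adjusted p of 0.05 (orange rose, blue fell), open points did not, and the black bar is the list's median. Collagen, fibroblast and mesenchymal medians lie at -2.72, -3.87 and -2.34, and the thyroid differentiation median at 0.22.

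The largest rises among all genes that the naming rule takes were 15 genes, 14 of them under 3 CPM in every Braf library. Fgg, the gamma chain of fibrinogen, was at 0.968, 0 and 0 CPM in Braf and 44.98, 72.9 and 105.1 CPM in knockout libraries (log2FC 7.98, SE 1.52, adjusted p = 0.00223). Hp, encoding the plasma protein haptoglobin, was the other rise among 9 acute phase genes, from 90.5 ± 57.1 to 697.8 ± 165.2 CPM (adjusted p = 0.00924, and 0.058 without Braf library 4). Grp, the gastrin-releasing peptide, went from 0.459, 0.181 and 0.904 to 83.6, 35.9 and 56.8 CPM (log2FC 6.83, SE 0.94, adjusted p = 0.000155). Crygs, a crystallin known from the eye lens, went from 0.611, 0.579 and 0.157 to 40.3, 27.9 and 39.8 CPM (log2FC 6.32, SE 0.69, adjusted p = 2.8e-05), and Selenbp2, a selenium-binding protein, from 0.459, 0.362 and 0.354 to 24.6, 28.2 and 28.6 CPM (log2FC 6.11, SE 0.81, adjusted p = 0.00012). For both genes the knockout libraries lay close together and every Braf library was under 1 CPM. Cbr2, a carbonyl reductase and the most abundant of the 15, went from 17.5, 34.7 and 30.5 to 2241, 411.7 and 1898 CPM (log2FC 5.78, adjusted p = 0.000852), lowest in knockout library 2. Upk1a, a uroplakin of urothelium, rose from 1.07 ± 0.914 to 48.7 ± 39.9 CPM. Nnat, a membrane proteolipid with an imprinted gene, was at 31.7, 8.80 and 177.5 CPM in the knockout libraries, which differed widely. Bpifb9a rested on knockout library 3 (38.02 CPM against 0.444 and 0.0814), and its adjusted p was 0.518 without it and 0.0894 to 0.109 without any 1 Braf library. H2-Bl had 2 counts in the Braf group, a 374.9-fold difference with a 95% counting interval of 103.8 to 3096. Nrsn1, Ctxn3, Rad51ap2, Ak7, Dcdc2a and Acsm1 complete the 15, with log2 fold changes of 5.72 to 6.89.

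The 15 largest falls were led by Adamtsl2, a secreted protein that binds fibrillin and restrains TGF-beta, at 46.4, 40.4 and 24.9 CPM in Braf and 0.190, 0 and 0 CPM in knockout libraries (log2FC -9.04, SE 1.14, adjusted p = 6.91e-05). Abcb1a, the drug efflux pump P-glycoprotein, went from 18.9, 21.3 and 17.6 to 0.127, 0.489 and 0.546 CPM (log2FC -5.63, SE 0.64, adjusted p = 3.06e-05). Stmn2, a microtubule regulator of neurons, had the smallest p of all genes, at 19.3, 18.4 and 47.7 against 0.381, 1.06 and 0.637 CPM (log2FC -5.37, SE 0.54, adjusted p = 1.8e-05). For these genes, and for Mamdc2 (12.1 ± 3.09 and 0.173 ± 0.130 CPM), Ly6d (120.5 ± 55.9 and 2.397 ± 0.778 CPM) and the metalloproteinase Mmp10 (6.31 ± 2.48 and 0.0505 ± 0.0875 CPM), the 3 Braf libraries lay within 3-fold of each other. Braf library 4 was the highest of them for Sele, Epha3, Igf2, Dkk2, C1qtnf9, Vtn and Cxcl9. Sele, an adhesion receptor of activated endothelium, was at 7.49, 112.2 and 57.5 CPM in Braf and at 1.14, 0.204 and 1.55 CPM in knockout libraries (log2FC -5.91, adjusted p = 0.00404). Epha3, an ephrin receptor, was at 16.5, 154.1 and 43.6 against 1.43, 1.63 and 1.33 CPM (log2FC -5.61, adjusted p = 0.00358), Igf2 at 1.17, 39.6 and 12.4 against 0.381, 0.407 and 0.0606 CPM, and the Wnt inhibitor Dkk2 at 2.09, 41.0 and 17.2 against 0.349, 0 and 0.758 CPM. Sele, Epha3, Igf2, Dkk2, C1qtnf9, Vtn and the chemokine Cxcl9 lost the call with the stromal level as a covariate, as did H2-Bl and Bpifb9a among the rises, while Adamtsl2, Abcb1a, Stmn2, Mamdc2, Ly6d, Mmp10, Mcpt1 and Actg2 kept it. Cxcl9 also lost it without Braf library 4 or any 1 knockout library (adjusted p 0.0573 to 0.064).

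**Figure D4:**
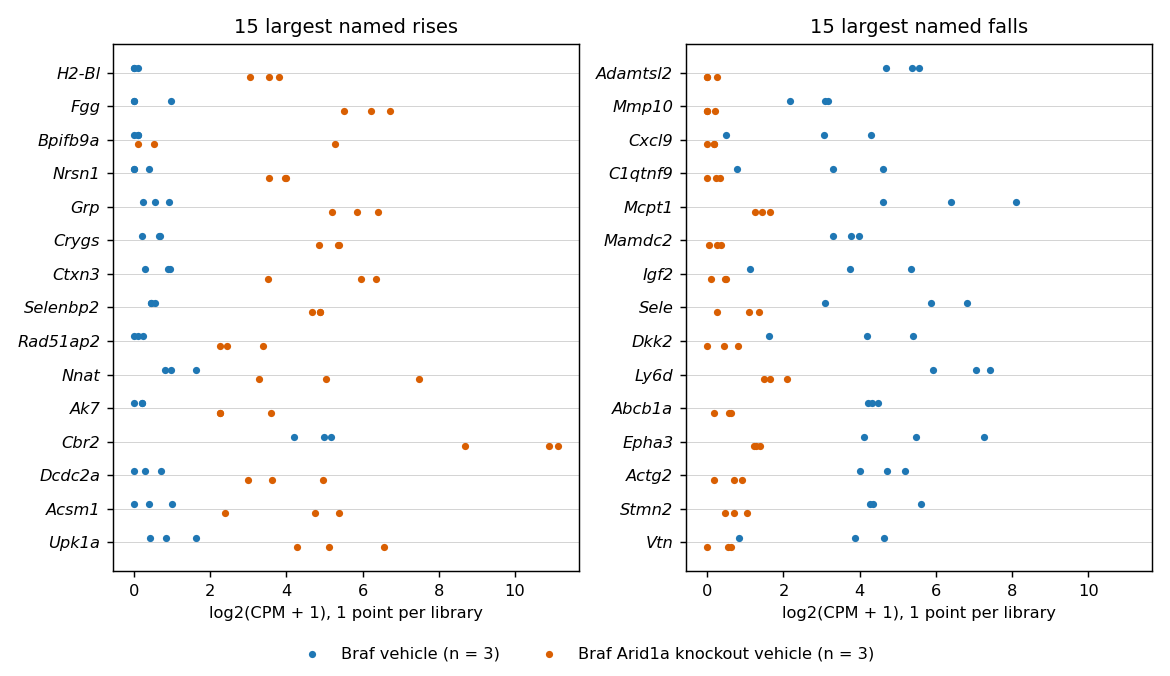
Each point is 1 library, with its level in log2(CPM + 1) on the x axis, for the 15 largest rises (left) and the 15 largest falls (right) that meet the naming rule. Braf libraries are blue and Braf Arid1a knockout libraries orange, with 3 of each. The naming rule takes only genes whose libraries do not overlap, so the separation in each row comes from the selection. For Bpifb9a it is small, with knockout library 2 at 0.0814 CPM and Braf library 5 at 0.0786 CPM.

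Promoter sequence was read for these 30 genes, as members that moved together. RefSeq promoters of build GRCm38.p6 matched 12 of the 15 rises and 11 of the 15 falls, and the 250 bases before the start were searched on both strands. The AP-1 letters TGANTCA were found for Crygs among the rises and for Mmp10 and Sele among the falls, and in 6.75% of all 32851 promoters. The TEAD letters GGAATG were found in none of the rises, in Abcb1a, C1qtnf9, Epha3, Igf2 and Vtn among the falls, and in 12.6% of all promoters. A gene was counted if any of its promoters held the letters, and Igf2 has several, whereas the shares of all are per promoter. The 2 kinds of share are therefore not alike. For Abcb1a, Mmp10 and Mcpt1 among the falls, the bases after the start matched no annotated transcript of the gene. The same held for Rad51ap2 and Upk1a among the rises. The start of these genes is less sure, both for letters found and for letters not found. The ETS letters CCGGAA, the interferon-response motif and the NF-kB motif were found in none of the matched promoters and in 12.0%, 2.98% and 0.356% of all. One promoter of a rise and 2 of falls are shown, each read 5′ to 3′ towards the gene's start, with the AP-1 or TEAD letters in capitals on the strand where they lie. They are Crygs at chr16:22811411-22811660 (minus strand, AP-1), Sele at chr1:164047984-164048233 (plus strand, AP-1) and Epha3 at chr16:63864176-63864425 (minus strand, TEAD).
Crygs: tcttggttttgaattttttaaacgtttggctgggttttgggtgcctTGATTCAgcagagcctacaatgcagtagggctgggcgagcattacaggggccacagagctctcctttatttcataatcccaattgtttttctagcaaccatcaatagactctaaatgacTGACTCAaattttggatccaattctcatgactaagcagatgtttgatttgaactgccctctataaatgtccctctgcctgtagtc
Sele: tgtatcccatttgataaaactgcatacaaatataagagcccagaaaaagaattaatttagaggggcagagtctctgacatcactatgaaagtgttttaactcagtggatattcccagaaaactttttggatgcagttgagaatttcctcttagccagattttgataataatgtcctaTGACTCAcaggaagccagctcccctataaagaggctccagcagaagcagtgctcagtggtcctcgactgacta
Epha3: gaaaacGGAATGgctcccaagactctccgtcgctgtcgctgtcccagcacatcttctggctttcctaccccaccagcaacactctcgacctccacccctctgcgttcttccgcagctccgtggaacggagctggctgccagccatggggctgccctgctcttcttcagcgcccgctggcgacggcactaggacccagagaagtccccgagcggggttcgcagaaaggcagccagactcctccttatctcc
Crygs rose to 36.0 ± 7.03 from 0.449 ± 0.253 CPM, Sele fell to 0.964 ± 0.689 from 59.1 ± 52.4 CPM and Epha3 fell to 1.46 ± 0.151 from 71.4 ± 72.9 CPM. A match of letters is a description of the sequence only.

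The same loss was then read in thyroids given CKI, which share no library with the vehicle groups. There 438 genes passed (2.30%), 195 higher (1.03%) and 243 lower (1.28%) with Arid1a loss. Leaving out 1 of those 6 libraries gave 160 (without CKI knockout library 2) to 566 (without CKI knockout library 5), and 168, 174, 254 and 289 without CKI Braf libraries 5, 1 and 4 and CKI knockout library 4. Falls outnumbered rises there, but with only the 6 CKI libraries fitted 83 genes were higher and 55 lower, and the split was 84 and 76 without CKI knockout library 2 and 158 and 131 without CKI knockout library 4. Of the 808 vehicle rises 609 (75.4%) also had a positive fold change with CKI, where 50.6% of all genes did, and 120 passed as rises. Of the 1010 falls 940 (93.1%) were negative, where 48.6% of all genes were, and 145 passed as falls. No vehicle call passed in the other direction. Those shared calls were 61.5% of the CKI rises and 59.7% of the CKI falls. Upk1a was at 0.971 ± 0.602 CPM in Braf and 80.7 ± 73.7 CPM in knockout libraries with CKI (log2FC 6.38, adjusted p = 0.00118), Grp at 5.001 ± 3.378 and 279.5 ± 80.3 CPM (5.80, adjusted p = 0.00118) and Fgg at 0.359 ± 0.364 and 235.3 ± 252 CPM (9.30, adjusted p = 0.0022). Stmn2 was at 5.93 ± 2.18 and 0.774 ± 0.398 CPM there (-2.92, adjusted p = 0.0022). Fibroblast markers had a median of -1.32 with CKI and none passed, mesenchymal genes a median of -1.37 with 3 falls. Endothelial markers had a median of -2.55 there with 1 fall, Schwann cell markers -1.70 and collagen chains -0.88, both without a call. Of the smooth muscle and pericyte markers 2 fell, and their mean log2(CPM + 1) was 4.98 in Braf and 3.07 in knockout libraries with CKI. The part of stromal content in the falls shared with vehicle was not tested.

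The difference between the vehicle and CKI effects was tested gene by gene, and no gene passed by edgeR's quasi-likelihood test, with 2018 genes at an unadjusted p under 0.05 and a smallest adjusted p of 0.0917. DESeq2 called 172, and without CKI knockout library 5 edgeR called 275. The 5 genes named by smallest p had adjusted p = 0.106 each. Tshr was one of them. With CKI it was at 411.8 ± 200 CPM in Braf and 551.2 ± 243.9 CPM in knockout libraries (log2FC 0.42, SE 0.40, adjusted p = 0.672), so the fold change under vehicle was larger by 3.12 (SE 0.58). Ppara, a nuclear receptor of fatty acid oxidation, went from 0.857 ± 0.130 to 14.7 ± 2.52 CPM under vehicle (log2FC 4.10, adjusted p = 3.35e-05) and was at 3.63 ± 0.553 and 6.49 ± 1.66 CPM with CKI. Dhrs3, a retinal reductase, went from 70.05 ± 14.4 to 220.7 ± 48.7 CPM under vehicle (log2FC 1.66, adjusted p = 0.000191) and was at 292.7 ± 31.98 and 290.6 ± 17.7 CPM with CKI. Phf7 and Fbp2 had differences of 2.50 and 3.28. In all 5 the knockout rose under vehicle and the CKI value did not pass.

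The third pair of groups lacked mutant Braf. In untreated Arid1a KO against Wildtype thyroids 3538 genes passed (18.6%), 1301 higher (6.84%) and 2237 lower (11.8%). The count was 1115 without Arid1a KO library 3, 1424 without Wildtype library 2, 1610 without Arid1a KO library 1 and 4854 without Arid1a KO library 2. The excess of falls turned to 1474 higher and 859 lower with only these 6 libraries fitted, to 890 and 720 without Arid1a KO library 1 and to 611 and 504 without Arid1a KO library 3. Of the 808 rises in Braf thyroids 243 (30.1%) were positive there, where 48.5% of all genes were. Of these 808, 32 passed as rises and 213 as falls. Of the 1010 falls 341 (33.8%) were negative, where 50.4% of all genes were. Of these 1010, 41 passed as falls and 178 as rises. The difference between the 2 effects passed for 594 of the 808 and 689 of the 1010, and for 4214 of all genes (22.2%), 2372 of them higher (12.5%) and 1842 lower (9.69%). The 808 and 1010 genes were chosen by the vehicle effect, which is itself part of this difference. A share above that of all genes is therefore built in to an unknown degree. Timp1 was at 3.10 ± 1.51 CPM in Wildtype and 115.7 ± 86.1 CPM in Arid1a KO libraries (log2FC 5.22, adjusted p = 0.000235), against its fall in Braf thyroids, a difference of -8.50 (SE 0.90, adjusted p = 2.17e-05). Plat, Gria3, an AMPA receptor subunit, Sh3kbp1, an endocytic adaptor, and Ube2l6, a conjugating enzyme for the interferon-induced modifier ISG15, also fell in Braf thyroids and rose without mutant Braf, with differences of -4.82, -7.56, -5.61 and -3.24 (adjusted p up to 3.19e-05). B2m fell in Braf thyroids and rose from 1393 ± 334.7 to 3945 ± 659.7 CPM without the mutation (difference -3.08, adjusted p = 7.3e-05). The mean log2(CPM + 1) of leukocyte markers was 5.34 in Wildtype and 8.23 in Arid1a KO libraries, and that of fibroblast markers 5.52 and 8.24. Their part in these differences was not tested. Tshr (-0.42, adjusted p = 0.512) did not pass there, and its difference of 3.95 did (adjusted p = 0.000229). These groups differ from the Braf groups in both the mutation and the 8 days of dosing, and 1 label text names Wildtype glands as frozen, so mutation, dosing and preparation cannot be told apart. That text does not name Arid1a KO glands, though it stands on every sample. Whether preparation also differs between Arid1a KO and Wildtype libraries is thus not known, which limits the 3538 calls and the differences that use them.

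**Figure D5:**
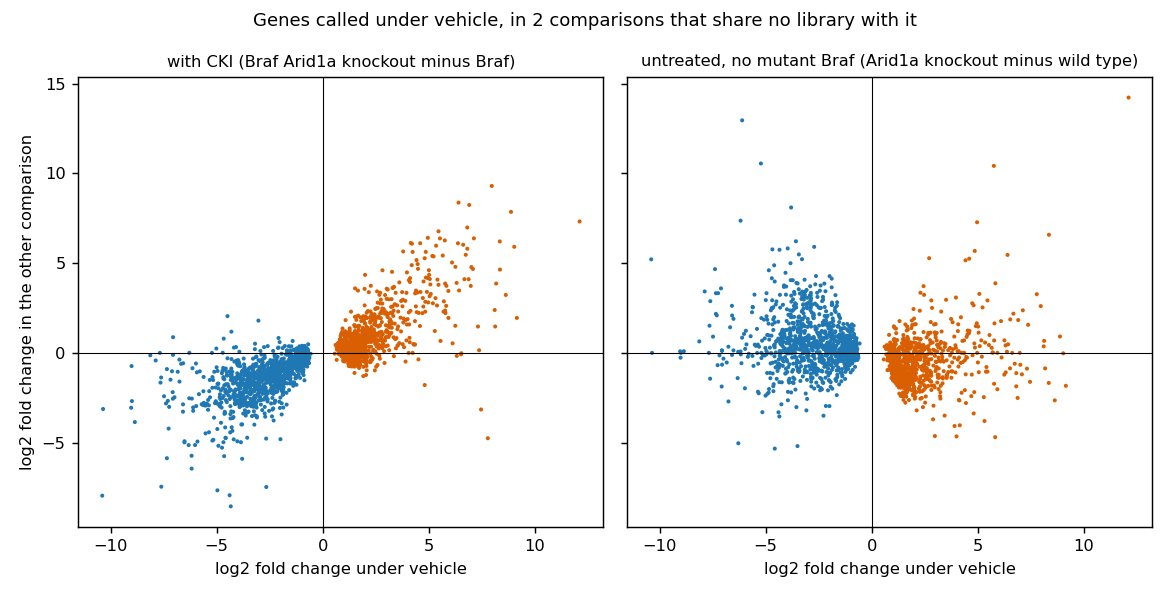
Each point is 1 of the 1818 genes called under vehicle, with its log2 fold change under vehicle on the x axis (808 rises in orange, 1010 falls in blue) and its log2 fold change for Arid1a loss in groups that share no library with it on the y axis, with CKI (left) and untreated without mutant Braf (right). With CKI 609 rises and 940 falls have the same sign, and without mutant Braf 243 and 341 do. Of all genes tested 50.6% were positive and 48.6% negative with CKI, and 48.5% and 50.4% without mutant Braf.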

How the data were processed

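RNA of mouse thyroid was sequenced, and the authors deposited 1 table of raw counts, whole-number reads per gene and not normalized, for 33924 genes. The submitters' processing notes name STAR 2.4, HTSeq 0.6.1, DESeq2 and mm9, without role or order, and strand use is not given in the sources used here. Counting over whole genes can split reads among close copies and does not separate overlapping genes. Of 30 labelled samples 28 matched a column, and Braf(V600E) + Arid2 knockout replicate 1 with vehicle and replicate 2 with CKI were not analysed here.

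From the counts, edgeR 4.0.16 (R 4.3.3) made 1 fit of the 28 libraries with a term per group, after TMM scaling and its low-count filter, and tested each contrast and each difference of contrasts by quasi-likelihood with Benjamini-Hochberg adjustment over 19016 genes at 0.05. Differences between conditions are tests of interaction. Levels of lists are means of log2(CPM + 1). On simulated data 100 genes were changed 2-fold and 100 were changed 4-fold, with the vehicle groups otherwise equal. There 6% of 2-fold and 55% of 4-fold changes were recovered for the vehicle comparison over 18662 genes, with 3 false calls. A 2-fold change was thus mostly not detected in that setting. That setting holds far fewer changes than the 1818 genes called, and the changed genes were taken above a minimum level. Each gene was drawn separately around its group mean, without differences that many genes share among the Braf libraries. Recovery and false calls in the data may therefore differ. Alternatives were RLE scaling, no filter, a replicate block, only the groups compared, DESeq2 1.42.0, leaving out each library, covariates for leukocyte and stress levels and a test against a 1.5-fold change. Covariates for stromal and Y-linked levels were added after seeing the data.

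The comparison, the 50 gene lists and the tests were chosen with earlier results of these data known. Named genes are Arid1a, the 15 largest rises and falls that reach 5 CPM as the higher group mean without overlap of libraries (predicted genes, immune receptor segments, mitochondrial genes and pseudogenes left out), up to 4 called members per list by smallest p, or up to 2 by level where none was called, and the 5 smallest p of each difference. Further list members were named after their values were seen. Results for 2 called list members are not reported here, though the counts include them.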

Additional observations from a re-analysis of the deposited data

Results flagged for a closer look

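The effect of Arid1a loss in Braf thyroids under vehicle differed from the effect without mutant Braf for 4214 of 19016 genes (22.2%), by the test of the difference itself. The 10 genes given here are among them and were picked by smallest p. Timp1, Gria3, Sh3kbp1, Plat and Ube2l6 were named for their small p in this same difference. The log2 differences were -8.50 for Timp1, -7.56 for Gria3, -5.61 for Sh3kbp1, -4.82 for Plat and -3.24 for Ube2l6, each of which fell in Braf thyroids and rose without the mutation. Gria3 was at 16.2, 21.2 and 10.6 CPM in Braf and 0.730, 0.896 and 0.758 CPM in knockout libraries, and at 1.18 ± 0.584 and 11.1 ± 2.26 CPM (n = 3 each) in Wildtype and Arid1a KO libraries. Differences in the other direction were 4.86 for Ppara, 3.95 for Tshr, 2.79 for Phf7, 2.395 for Fbp2 and 1.55 for Dhrs3. These 5 were named for their small p in the vehicle minus CKI difference, where none passed. Mutation and dosing differ together between the 2 pairs of groups, and preparation may differ too, so these cannot be told apart.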

How the results depend on the processing

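The vehicle count of 1818 became 1095 with the replicate block, 829 with only the groups compared, 2910 with DESeq2, 936 with the stromal covariate, 858 in the test against a 1.5-fold change and 737 to 1637 when 1 library was left out. The vehicle groups share only replicate number 2, so whether numbers pair the samples could not be checked. The CKI count of 438 became 263 with the replicate block, 138 with only its groups, 1125 with DESeq2 and 160 to 566 without 1 library. The count without mutant Braf, 3538, became 2333 with only its groups and 1115 to 4854 without 1 library. The vehicle minus CKI difference gave 1 call without the low-count filter, 172 with DESeq2 and 0 to 275 without 1 library. The difference from thyroids without mutant Braf ran from 2885 to 5277 without 1 library. The stromal covariate is built from stromal genes. Among the genes followed by name across the settings, the sign turned with it for Col1a1 (0.29), Col1a2 (0.59), Emcn (0.47), Pecam1 (0.22), Pdgfrb (0.97), Egfr (0.09), Notch3 (0.68) and Arid1a (0.52). Over all calls, the 808 rises kept their sign with it, but only 887 of the 1010 falls (87.8%) did. With it 231 of the 808 rises and 280 of the 1010 falls were still called. Why the counts moved was not tested.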

Other observations

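Lung surfactant genes were abundant in these thyroid libraries. Sftpa1, a surfactant protein, was at 46230 ± 20440 CPM in Braf and 8785 ± 3246 CPM in knockout libraries (n = 3 each; adjusted p = 0.107 by edgeR), and Sftpd at 12730 ± 6074 and 3658 ± 1120 CPM (adjusted p = 0.162). None of 13 lung and foregut secretory genes passed, and 9 of them had negative log2 fold changes. Cartilage and airway markers had a median of -3.85 with no call in 6 genes, and Comp, a cartilage matrix protein, was at 47.99 ± 40.7 and 5.72 ± 1.25 CPM (adjusted p = 0.0808).

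Parathyroid markers had a median of -2.34 over 4 genes, or -1.63 with 1 gene without knockout counts at its bound, and none passed. Pth, parathyroid hormone, was at 31.2 ± 11.8 and 5.06 ± 5.203 CPM (adjusted p = 0.112). Of 6 C cell markers Scg2, a secretogranin, fell (median 0.09). Its adjusted p of 0.0215 was 0.282 without Braf library 2, 0.099 without knockout library 1 and 0.0719 without knockout library 2. Of 4 adipocyte markers Fabp4, a fatty acid binding protein, fell from 100.8 ± 79.9 to 9.46 ± 0.688 CPM (median -2.57), and its adjusted p of 0.0224 was 0.0953 without Braf library 4 and 0.0688 to 0.0811 without any 1 knockout library. None of 5 erythroid markers (median -1.32), 8 skeletal muscle markers (0.09) or 13 Bcl2 family genes (-0.31) passed.

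Among 12 cell cycle inhibitors and G1 regulators Ccnd2, a cyclin of G1, fell from 320.9 ± 144 to 156.5 ± 40.6 CPM with overlapping groups (median -0.26). Its adjusted p of 0.0224 rose to between 0.0704 and 0.102 without Braf library 4 or 5 or knockout library 1 or 3. Of 12 genes of the unfolded protein response Asns, asparagine synthetase, fell from 58.2 ± 2.45 to 28.6 ± 8.91 CPM (median -0.03), with an adjusted p of 0.0431 that rose to between 0.0679 and 0.154 without any 1 library but knockout library 3. Of 15 chemokines Cxcl9 was the 1 call (median -0.21).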
